A study of Mus musculus with 2 samples.

Results

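The genes described here are the potassium channel genes of the mouse, taken as every gene symbol of the count matrices that starts with Kcn, without 5 antisense or opposite-strand transcripts. They number 94 of the 32285 genes in the files, and their levels are given in each class of striatal cells. The data are single-cell RNA counts of a pair of 10x Genomics libraries, replicates 1 and 2 of a single condition. Both came from striatal tissue of untreated adult mice, dissociated to single cells, of the C57/Bl6J strain by their labels, which call the cells enriched for glia and give an age of 8 to 10 weeks. The sources differ on age and substrain, name 4 male mice in all in the study's methods, and do not say how many mice entered each library. The protocol digested the tissue with pronase, passed it through a fine filter and removed debris, steps that set which cells are recovered, so that shares of cells are not shares in the tissue.

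Potassium channels let K+ leave or enter a cell and so set its resting voltage and end its electrical signals. Voltage-gated channels (Kcna, Kcnb, Kcnc, Kcnd, Kcnh, Kcnq and the silent subunits Kcnf, Kcng, Kcns and Kcnv) open on depolarization. Inward rectifiers (Kcnj) and 2-pore leak channels (Kcnk) hold the resting voltage. Kcnma, Kcnn and Kcnt channels open with calcium or sodium, and Kcnu is grouped with them here by its symbol only. Kcnab, Kcnip, Kcne and Kcnmb are partner subunits. In the brain, astrocytes are known for taking up the K+ that active neurons release, spiny projection neurons of the striatum for a strong inward rectification at rest, and pericytes for channels that open when the cell runs short of ATP.

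Library 1 held 6978 barcodes and 44597660 unique molecular identifiers (UMIs, each standing for a captured mRNA molecule), and library 2 held 5437 barcodes and 37982720 UMIs. After cells with fewer than 300 detected genes and called doublets were removed, 6783 and 5212 cells were used. The libraries shared 9 barcodes. Cells were clustered without any Kcn gene and named from marker genes, which gave 9 classes that enter the tests, from 94 and 76 macrophage-like cells to 1365 and 1033 astrocyte-like cells. The summed levels of the markers of a class were highest in that class for each of the 9. In the text a class is called by its name alone, and always stands for cells that resemble it by markers. The neuroblast class includes dividing cells, and the class of oligodendrocyte precursor cells also carries markers of differentiating precursors. An erythroid class of 86 and 11 cells was left out of the tests. Levels (CPM) are the UMIs of a gene divided by all UMIs of the class in that library, times 1000000. They count the 3′ ends of transcripts, so a level is compared between classes of cells and not between genes.

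Of the 94 genes, 8 had no UMI in any of the 9 classes (Kcna7, Kcna10, Kcne2, Kcnj1, Kcnk15, Kcnk16, Kcnk18 and Kcnmb3), and a further 11 had between 2 and 40 UMIs in all and fell under the filter on low counts. The other 75 were tested. The 40 voltage-gated genes gave 34 tested genes, the 17 auxiliary genes 12, the 15 inward rectifiers 12 and the 14 2-pore channels 9. All 8 genes of the calcium- or sodium-activated group, Kcnu1 among them, were tested. All 94 were placed on the GRCm38 assembly by gene identifier.

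Summed over all 94 genes, Kcn transcripts were most abundant in neurons, at 3372 CPM in library 1 and 3756 in library 2. Astrocytes had 2005 and 1819 CPM, OPCs (oligodendrocyte precursor cells) 1498 and 1861, mural cells 1389 and 1293, and oligodendrocytes 1059 and 1032. The lowest sums were those of neuroblasts, at 596 and 541 CPM, microglia, at 400 and 394, endothelial cells, at 307 and 252, and macrophages, at 235 and 197. Each class had 2 values, and those of astrocytes and OPCs overlapped, while those of the other 7 classes did not overlap with any other class. The mural class held 145 pericytes and 115 smooth muscle cells of vessel walls, and its largest subcluster, of 228 cells, carried fibroblast markers. Without the mixed subclusters, these 228 cells included, the mural sums were 1489.6 and 1374 CPM.

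**Figure D1:**
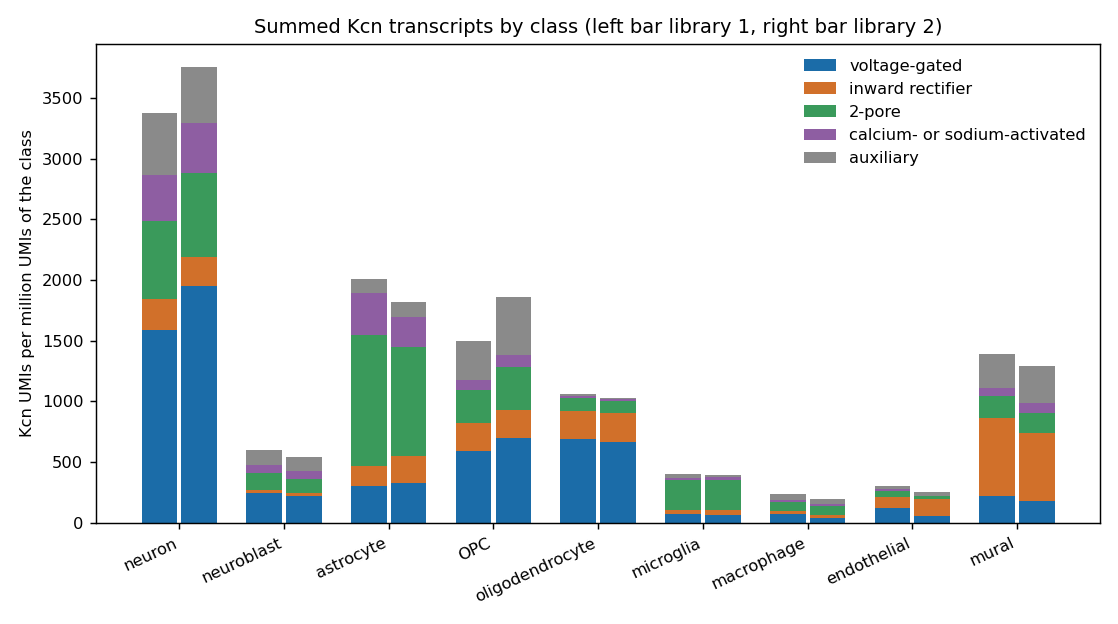
Summed Kcn level in CPM (vertical axis) in each class (horizontal axis), as stacked bars by channel group, with library 1 at the left and library 2 at the right of each pair. Voltage-gated genes make up the tallest share of counted Kcn UMIs in neurons, OPCs and oligodendrocytes, 2-pore genes that in astrocytes and microglia, and inward rectifiers that in mural cells. These shares count 3′ ends and do not compare the amounts of different channels within a class.

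The summed level of each group of channels differed between classes, and is compared here between classes and not between groups. Single genes made up much of some sums, among them Kcnj8 in mural cells, Kcnk1 in astrocytes and Kcna1 in oligodendrocytes. Voltage-gated genes gave 1588 and 1951 CPM in neurons and 687 and 669 CPM in oligodendrocytes. The 2-pore genes gave 1078 and 894 CPM in astrocytes and 243 and 251 CPM in microglia. Inward rectifiers gave 642 and 563 CPM in mural cells, and these were the highest inward rectifier sums of the 9 classes. Auxiliary subunits reached 508 and 464 CPM in neurons and 326 and 480 CPM in OPCs, against 16 and 13 CPM in oligodendrocytes.

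A gene was called raised in a class when it was higher there than in each of the other 8 classes, in a test that takes the weakest of the 8 contrasts (edgeR quasi-likelihood test on UMI counts summed per library and class, in which the libraries form the blocks, and Benjamini-Hochberg adjustment over 15536 genes at 0.05). By this rule 38 of the 75 tested members (50.7%) were raised in a class, against 31.1% of all genes tested. Neurons held 22 of them, or 29.3% of the tested members against 6.11% of all genes. Mural cells held 7 (9.33% against 2.79%) and microglia 3 (4.0% against 2.66%). Astrocytes held 2 members against 3.29% of all genes, OPCs 2 against 1.08%, and oligodendrocytes 2 against 5.41%. In endothelial cells (background 3.13%), macrophages (1.76%) and neuroblasts (4.82%) this test called 0 members, as did DESeq2, and the counts at an unadjusted p under 0.05 were 1, 0 and 0. Cells with under 20% mitochondrial UMIs, clustered anew, gave 23 raised members, with 9 in neurons and a fibroblast class added, and 21 of these were raised in the same class as before. By channel group, neurons held 13 of the 34 voltage-gated genes, 3 of the 12 inward rectifiers, 2 of the 12 auxiliary genes and 2 of the 9 2-pore genes. Mural cells held 2 inward rectifiers and 2 auxiliary genes, OPCs 2 auxiliary genes and microglia 2 2-pore genes. No source says that the libraries came from separate mice. With libraries as blocks, p-values measure only how far differences between classes vary over these 2 libraries. In the test for raised genes, the log2 fold change and SE are those over the class with the smallest fold change. The adjusted p printed beside them rests on the largest p of the 8 contrasts, which can belong to another class.

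**Figure D2:**
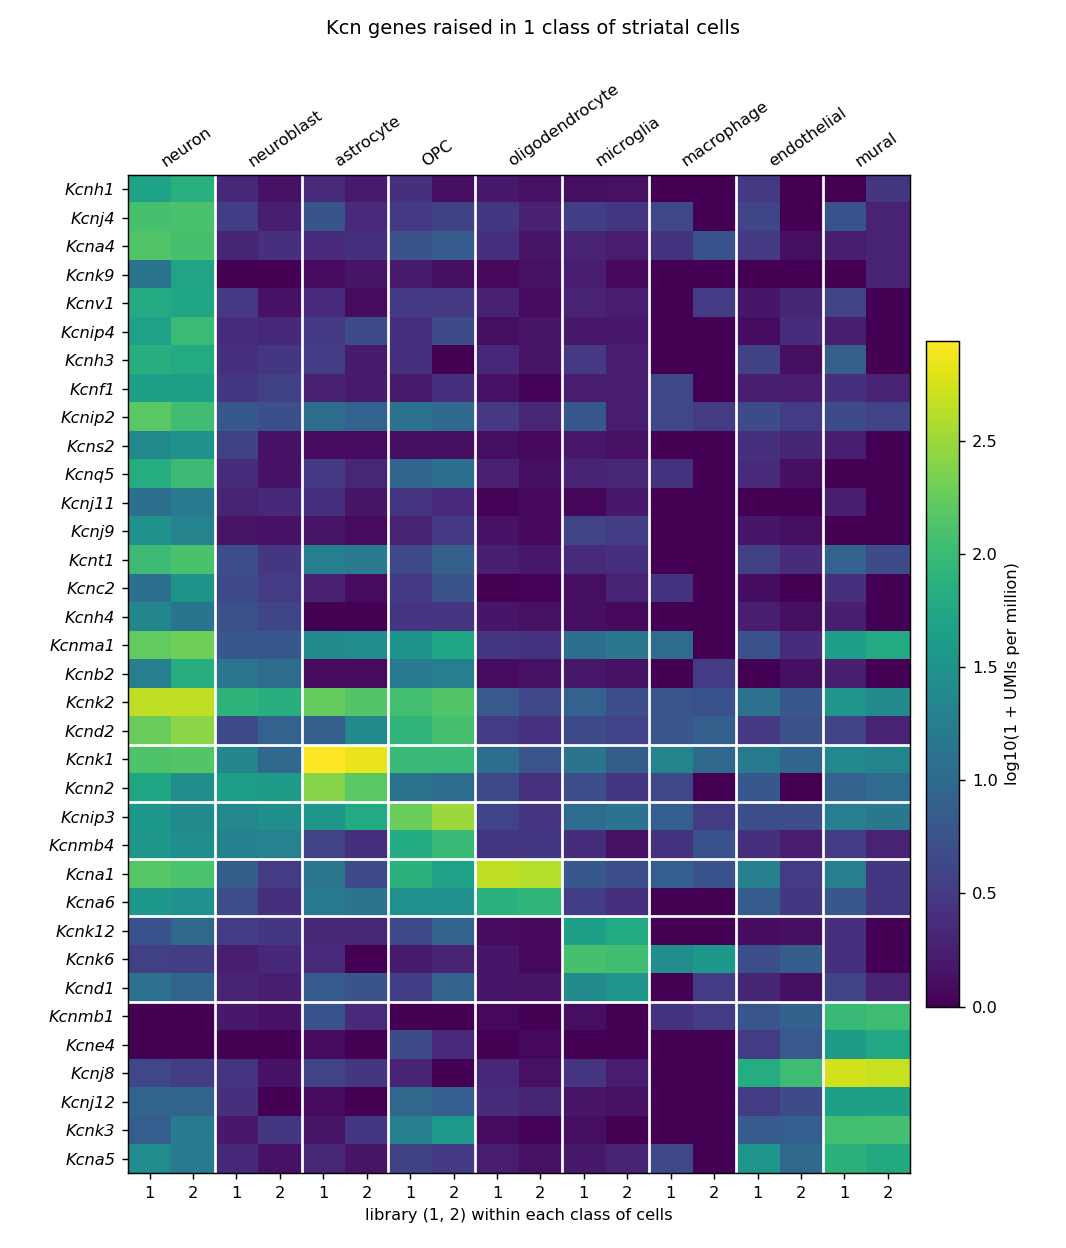
Level of 35 of the members raised in a class (rows, grouped by that class) in both libraries of each of the 9 classes (columns), coloured by log10(1 + CPM). The 20 neuron rows form the upper block, and the row of Kcnj8 shows a second, lower level in the endothelial columns beside the mural ones.

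Among the neuronal members, the log2 fold change over the next-highest class was largest for a group that stayed under 7 CPM in every other class. Kcnh1, a voltage-gated channel of the ether-à-go-go family, was 49.0 CPM in library 1 and 73.3 CPM in library 2, and no other class exceeded 2.06 CPM (log2 fold change over endothelial cells 5.18, SE 0.58, adjusted p = 0.00089). Kcnj4, an inward rectifier of spiny neurons, was 122 CPM in both libraries, against 4.78 and 1.29 CPM in astrocytes (5.08, SE 0.41, adjusted p = 5.9e-05). Kcna4, which carries a fast inactivating current, was 137 and 121 CPM, against 4.67 and 6.21 CPM in OPCs (4.65, SE 0.33, adjusted p = 7.1e-06). Both libraries of neurons lay above both libraries of every other class for these 3 genes. The call of Kcnh1 was lost with under 20% mitochondrial UMIs.

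The silent subunit Kcnv1, which forms no channel alone, was 61.4 and 53.8 CPM in neurons (log2 fold change over OPCs 4.61, SE 0.47, adjusted p = 0.00049). Its call was lost in cells thinned to 1000 UMIs. Kcnip4, a calcium-binding partner of Kv4 channels, was 47.7 and 100.2 CPM (4.27 over astrocytes, SE 0.34, adjusted p = 2.0e-05). The leak channel Kcnk9 was 12.4 CPM in library 1 and 50.5 CPM in library 2 (4.63 over microglia, SE 0.60, adjusted p = 0.0087). Kcnip4 and Kcnk9 were each much higher in the second library, and so were Kcnb2 (17.0 and 66.8 CPM) and Kcnc2 (11.1 and 32.6 CPM). The summed level of 8 interneuron markers in the neuron class was 267 CPM in library 1 and 3618 CPM in library 2, and its part in these levels was not tested.

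Members that the naming rule does not name for this class, picked here after their values were seen, belong to known currents of spiny neurons. Kcnd2, the Kv4 channel of the A-type current, was 183 and 266 CPM in neurons and 83.8 and 119.9 CPM in OPCs, and its partner Kcnip2 was 154 and 108 CPM in neurons and at most 11.5 CPM elsewhere. Kcnq5, a subunit of the M-current, was raised in neurons (65.3 and 103 CPM), whereas Kcnq3, which can pair with it, was 98.7 and 127 CPM in neurons, 57.1 and 83.6 in oligodendrocytes and 62.0 and 66.8 in OPCs, and was not called. Kcnma1, the large-conductance calcium-activated channel, was 169 and 196 CPM in neurons and 43.4 and 61.6 CPM in mural cells. Kcnj2, the other inward rectifier known from spiny neurons, was 23.5 and 26.1 CPM in neurons and 16.3 and 18.3 CPM in microglia, and was not called in either.

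Neurons and neuroblasts, mature and immature neuronal cells, were compared in the same fit. Whether such neuroblasts give rise to the neurons sampled here was not tested. The test called 51 of 75 members (68.0%, against 53.6% of all genes). In neurons 49 were higher (65.3%, against 30.1%) and 2 were lower (2.67%, against 23.6%). The 22 members raised in neurons had to exceed neuroblasts for that call, in the same fit. Their part in these counts and in the median below is no separate result. Kcnk9 passed the filter on low counts with no UMI in neuroblasts. The median log2 fold change of the tested members was 2.52, against 0.15 over all genes, and it was the same with the 6 members that had no UMI in 1 of both classes put at the limit that a count of 0 allows. Kcna4 was 1.04 and 1.55 CPM in neuroblasts (log2 fold change 6.28, SE 0.38, adjusted p = 8.2e-10), Kcnj4 2.53 and 0.773 CPM (5.76, SE 0.44, adjusted p = 1.3e-08), and Kcnh1 1.19 and 0.387 CPM (5.43, SE 0.57, adjusted p = 7.0e-07). Kcnq5 was 65.3 and 103 CPM in neurons and 1.34 and 0.387 CPM in neuroblasts (5.74, SE 0.45, adjusted p = 2.7e-08). Kcnk9 had no UMI in neuroblasts, where a count of 0 allows up to 0.446 CPM in library 1 and 1.16 CPM in library 2.

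The 2 members higher in neuroblasts were Kcne1l and Kcnk10. Kcne1l, a small partner subunit, was 46.1 and 39.4 CPM in neuroblasts and 4.57 and 0.815 CPM in neurons (log2 fold change of neurons over neuroblasts -3.69, SE 0.42, adjusted p = 1.0e-06). Its level in astrocytes was 44.7 and 38.2 CPM, so that neuroblasts and astrocytes overlapped. Kcnk10, a leak channel opened by stretch and lipids, was 32.0 and 29.8 CPM in neuroblasts and 3.27 and 11.4 CPM in neurons (-2.09, SE 0.35, adjusted p = 0.00011). The inward rectifiers Kcnj10 and Kcnj16 did not pass the test here (log2 fold changes 0.81, SE 0.46, and 1.26, SE 0.55, adjusted p = 0.15 and 0.066). Both turned to the other direction without the mixed subclusters, among them 63 neurons that carried astrocyte markers, and Kcnj10 was then 13.1 and 6.8 CPM in neurons and 14.5 and 13.6 CPM in neuroblasts (-0.47). The median share of mitochondrial UMIs was 10.5% and 14.1% in neurons and 5.30% and 6.34% in neuroblasts, and its part in these differences was not tested.

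The neurons were then divided by UMIs of markers of the direct pathway (D1, among them Drd1 and Tac1) and the indirect pathway (D2, among them Drd2 and Penk), since clustering did not part them. This gave 109 and 100 D1 cells and 80 and 45 D2 cells. Of all 643 neurons, 309 fell in neither group, 280 of them with fewer than 3 marker UMIs of either list. Of 35 tested members 0 passed the test in edgeR (quasi-likelihood, adjusted by Benjamini-Hochberg over 7721 genes), against 1.41% of all genes, of which 0.725% were higher and 0.686% lower in D1 cells. DESeq2 also called 0 members. With edgeR, 6 of the 35 members had an unadjusted p under 0.05, against 662 of the 7721 genes. Kcna2, a voltage-gated channel of axons and the member with the smallest p, was 83.5 and 66.0 CPM in D1 cells and 113 and 162 CPM in D2 cells (log2 fold change of D1 over D2 -0.85, SE 0.26, adjusted p = 0.12). The fold changes of the 35 members lay between this value and 0.81, that of Kcnb2. Kcnj4 was 128 and 159 CPM in D1 cells and 178 and 166 CPM in D2 cells (-0.32, SE 0.23, adjusted p = 0.78), and Kcnd2 was 229 and 316 CPM against 229 and 353 CPM (-0.13, SE 0.20, adjusted p = 0.94).

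Astrocytes held 2 raised members. Kcnk1, a weakly conducting leak channel known from astrocytes, was 870 CPM in library 1 and 715 CPM in library 2, against 134 and 141 CPM in neurons and 96.3 and 97.0 CPM in OPCs (log2 fold change over neurons 2.62, SE 0.24, adjusted p = 2.0e-06). Kcnn2, a small-conductance calcium-activated channel, was 256 and 154 CPM, against 41.9 and 40.6 CPM in neuroblasts and 52.9 and 27.7 CPM in neurons (2.39 over neuroblasts, SE 0.28, adjusted p = 5.8e-05). Both astrocyte libraries lay above both libraries of every other class for either gene. The call of Kcnn2 was lost at a clustering resolution of 0.32. Astrocyte markers summed to 1882 and 556 CPM in neurons and to 20816 and 22131 CPM in astrocytes. Kcnk1 in neurons, relative to astrocytes, was 1.70 and 7.83 times the level that the astrocyte markers had there by the same measure, and in OPCs it was 2.17 and 2.81 times, while in the other 6 classes this ratio lay between 0.42 and 1.06.

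Kcnj10, which encodes the inward rectifier Kir4.1 of glia, was shared by 3 glial classes. It was 223 and 221 CPM in oligodendrocytes, 152 and 160 CPM in OPCs and 118 and 169 CPM in astrocytes, and between 2.27 and 36.6 CPM in the other 6 classes. The 3 glial classes stood clear of the rest, the libraries of OPCs and astrocytes overlapped, and oligodendrocytes did not pass the test over the other classes (log2 fold change over astrocytes 0.95, SE 0.30, adjusted p = 0.078 for the weakest contrast in edgeR). Over 10 alternatives this adjusted p ranged from 2.5e-07 to 0.95, and Kcnj10 was called raised in oligodendrocytes in 7 of them (no filter on low counts, doublets kept, at least 500 genes, under 20% mitochondrial UMIs, thinned cells, resolution 0.32 and without mixed subclusters), with log2 fold changes of 0.84 to 1.14. Kcnj16, which encodes Kir5.1, a subunit that pairs with Kir4.1, was 42.4 and 44.1 CPM in OPCs and 24.3 and 38.9 CPM in astrocytes but 0.601 and 0.497 CPM in oligodendrocytes. The difference of OPCs and astrocytes in Kcnj16 did not pass the edgeR test (log2 fold change of OPCs over astrocytes 0.13, SE 0.24, adjusted p = 0.71), though their libraries did not overlap. OPCs were higher than oligodendrocytes (4.87, SE 0.31, adjusted p = 1.2e-09).

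**Figure D3:**
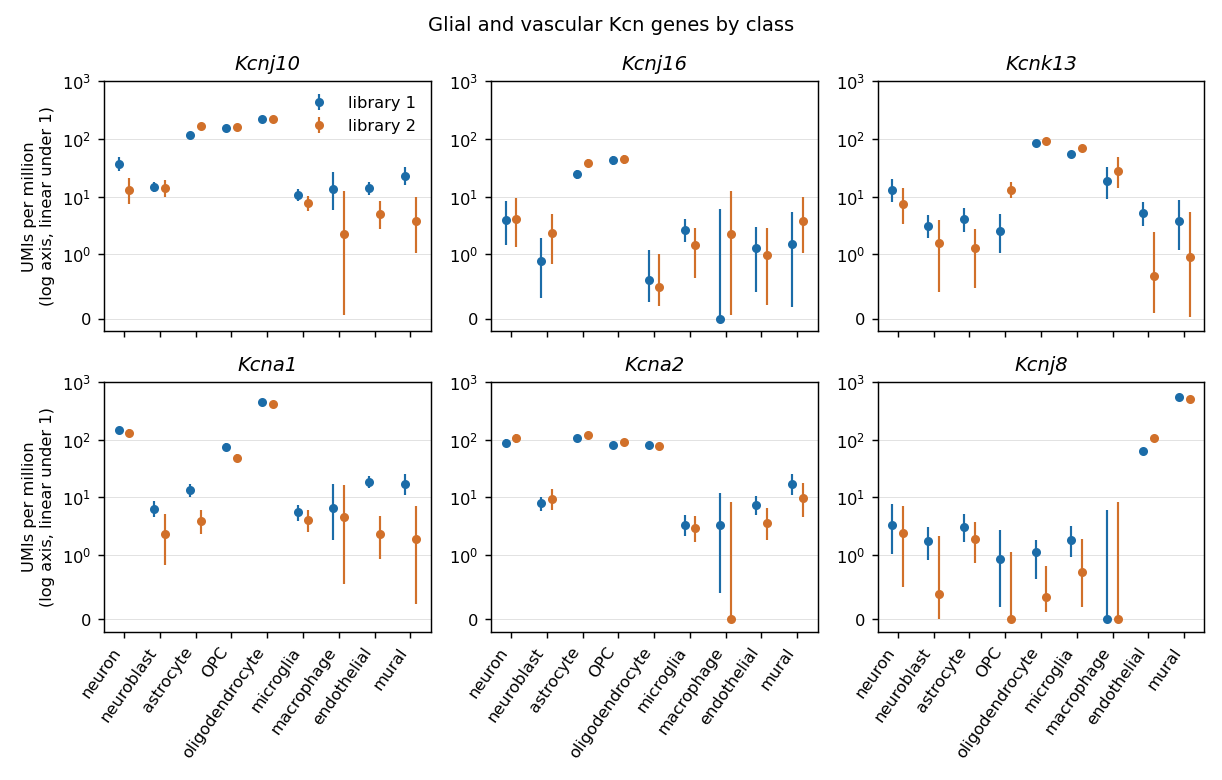
CPM (log axis, linear under 1) of 6 members in 9 classes, as 1 point per library with its exact Poisson 95% interval. Kcnj10 is high in astrocytes, OPCs and oligodendrocytes, Kcnj16 in astrocytes and OPCs, Kcnk13 in oligodendrocytes and microglia, and Kcnj8 in mural cells.

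Oligodendrocytes held 2 raised members, both voltage-gated. Kcna1, a low-threshold channel known from axons beside the node, was 451 and 406 CPM, against 146 and 128 CPM in neurons (log2 fold change 2.12, SE 0.33, adjusted p = 0.00025). Kcna6, of the same subfamily, was 73.5 and 84.9 CPM, against 35.9 and 29.3 CPM in neurons (1.72, SE 0.25, adjusted p = 0.00019). Both genes were higher in oligodendrocytes than in every other class in both libraries. In the 7 classes other than neurons and oligodendrocytes, the level of Kcna1 relative to oligodendrocytes was between 0.52 and 1.83 times that of 8 summed oligodendrocyte markers, against 9.43 and 25.6 times in neurons. For Kcna6 the same ratio was 7.04 and 13.9 in astrocytes and 14.2 and 28.1 in neurons.

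Kcnk13, a leak channel that volatile anaesthetics inhibit, was shared by oligodendrocytes, at 86.1 and 90.2 CPM, and microglia, at 54.9 and 68.9 CPM. The libraries of these classes did not overlap, but their difference did not pass the edgeR test (log2 fold change 0.61, SE 0.32, adjusted p = 0.11). With 2 libraries this does not show equal levels. Macrophages had 18.3 and 27.2 CPM of Kcnk13 and the other 6 classes at most 13.1 CPM. Kcna2 was spread over astrocytes (107 and 120 CPM), neurons (87.5 and 104), OPCs (81.9 and 90.4) and oligodendrocytes (79.0 and 77.8), and was at most 17.2 CPM in the remaining classes.

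OPCs held 2 raised members, both partner subunits. Kcnip3, a calcium-binding protein that also acts in the nucleus, was 188 and 314 CPM, against 34.7 and 61.0 CPM in astrocytes (log2 fold change 2.03, SE 0.23, adjusted p = 5.9e-05). Kcnmb4, the neuronal partner of the large-conductance calcium-activated channel, was 62.9 and 96.6 CPM, against 34.6 and 26.9 CPM in neurons (1.11, SE 0.27, adjusted p = 0.040). The call of Kcnmb4 was lost with DESeq2, without the block and in thinned cells.

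OPCs and oligodendrocytes, early and late cells of a common lineage, were compared in the same fit. The OPC class carried 5 markers of differentiating precursors, among them Gpr17 and Bmp4, at 3660 and 2671 CPM. In oligodendrocytes these markers were at 496 and 488 CPM, and the part of differentiating cells in the OPC levels was not tested. The test called 51 of 75 members (68.0%, against 50.1% of all genes). In OPCs 42 members were higher (56.0%, against 25.6%) and 9 were lower (12%, against 24.5%). The 2 members raised in OPCs and the 2 raised in oligodendrocytes had to differ in this way for those calls, so they are no separate result. The median log2 fold change of the tested members was 1.46, or 1.78 with 7 members that had no UMI in 1 of both classes put at the limit of a count of 0, against 0.012 over all genes. Scaling by library size alone moved the median of all genes to 0.59, and the direction of Kcna2, a small difference, turned with it. On that scale 48 members were higher and 5 lower, so that 90.6% of the called members and 82.5% of all called genes were higher in OPCs, against 82.4% and 51.0% with TMM scaling, and Kcna2, Kcnab2, Kcnj10 and Kcnq3 were no longer called.

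The largest rises in OPCs were those of 3 subunits of the A-type current and 2 leak channels. Kcnip3 was 2.85 and 1.84 CPM in oligodendrocytes (log2 fold change 5.81, SE 0.29, adjusted p = 7.3e-11). Kcnip1, another Kv4 partner, was 34.0 and 28.6 CPM in OPCs and 0.15 and 0.0709 CPM in oligodendrocytes (adjusted p = 1.5e-07). Its oligodendrocyte level rests on 3 UMIs, and the ratio of raw levels was 286, with an exact binomial 95% interval from counting error alone of 96.4 to 1397. This ratio has no TMM scaling or prior count, unlike the log2 fold changes of the fit given for the other genes. Kcnd3, a Kv4 channel, was 38.3 and 56.2 CPM against 0.451 and 0.497 CPM (5.10, SE 0.36, adjusted p = 7.2e-09). The acid-sensitive leak channel Kcnk3 was 18.1 and 38.2 CPM against 0.225 and 0.0709 CPM (5.03, SE 0.39, adjusted p = 2.0e-08), and Kcnk10 was 41.7 and 53.1 CPM against 0.601 and 0.497 CPM (4.99, SE 0.30, adjusted p = 1.1e-09). For each of these the OPC libraries lay above both oligodendrocyte libraries.

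The largest falls were those of Kcnk13 (2.49 and 13.1 CPM in OPCs; log2 fold change -4.09, SE 0.42, adjusted p = 3.1e-07) and Kcna1 (75.7 and 47.5 CPM; -3.54, SE 0.34, adjusted p = 1.4e-07). Kcnj2 was 0 and 1.55 CPM in OPCs and 6.84 and 8.65 CPM in oligodendrocytes (-3.23, SE 0.47, adjusted p = 1.9e-05), and Kcna6 was 29.3 and 29.8 CPM in OPCs (-2.09, SE 0.23, adjusted p = 1.0e-06). Kcnk5, an alkali-activated leak channel, had no UMI in OPCs, where a count of 0 allows up to 0.935 and 0.932 CPM, and was 1.5 and 3.55 CPM in oligodendrocytes. Kcnj10 was lower in OPCs with TMM scaling (-1.19, SE 0.31, adjusted p = 0.0035) and its change with library sizes alone was -0.50, which did not pass. OPCs carried oligodendrocyte markers at 10921 and 7654 CPM, against 75224 and 69243 CPM in oligodendrocytes. The part of oligodendrocyte transcripts in the OPC levels of the members was not tested.

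Microglia held 3 raised members. Kcnk12, a 2-pore channel that is silent alone, was 44.6 and 61.2 CPM and at most 8.96 CPM elsewhere (log2 fold change over neurons 3.24, SE 0.31, adjusted p = 2.3e-05). Kcnk6, a 2-pore channel also known as TWIK2, was 122 and 109 CPM, against 26.6 and 36.3 CPM in macrophages and at most 6.32 CPM elsewhere (2.00 over macrophages, SE 0.34, adjusted p = 0.0013). Kcnd1, a Kv4 channel, was 24.2 and 33.4 CPM, against 11.8 and 8.15 CPM in neurons (1.79, SE 0.37, adjusted p = 0.0087), and its call was lost with library sizes alone (1.45), with DESeq2 and with under 20% mitochondrial UMIs, while it was not tested in thinned cells. The macrophages had no UMI of Kcnk12, which allows up to 5.00 CPM in library 1 and 6.80 CPM in library 2, and carried 7 markers of their own at 10760 and 7773 CPM and microglial markers at 11270 and 9182 CPM.

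Mural cells, of which 228 of 488 were the fibroblast-like cells named above, held 7 raised members. The 7 calls stood without the mixed subclusters, but 3 of them, those of Kcne4 and Kcnj12 included, were lost with at least 500 genes, with under 20% mitochondrial UMIs and at a resolution of 0.32, and in thinned cells those of Kcnj8 and Kcnk3 alone remained. The call of Kcna5 was also lost without the library block. Kcnj8, the pore of the ATP-sensitive channel of vessels, was 552 and 499 CPM, against 64.3 and 105 CPM in endothelial cells and at most 3.27 CPM elsewhere (log2 fold change over endothelial cells 2.63, SE 0.27, adjusted p = 6.8e-06). Kcnmb1, the smooth muscle partner of the large-conductance calcium-activated channel, was 95.7 and 106 CPM (3.96, SE 0.40, adjusted p = 0.00019), and Kcne4, a small partner subunit, was 38.9 and 54.9 CPM (3.43, SE 0.53, adjusted p = 0.0059). Kcnj12, an inward rectifier, was 44.9 and 46.2 CPM, against 7.84 and 8.15 CPM in neurons (2.50, SE 0.44, adjusted p = 0.0019). Kcnk3 was 112 and 115 CPM, against 18.1 and 38.2 CPM in OPCs (2.36, SE 0.29, adjusted p = 6.2e-05). The mural libraries lay above those of every other class for these 5 genes and for Kcna5 (77.0 and 59.7 CPM).

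The endothelial class held a subcluster of 78 cells with mural markers and one of 504 cells with oligodendrocyte markers. Without these and the other mixed subclusters, which were picked after the data were seen, Kcnj8 in endothelial cells was 4.3 and 8.0 CPM, and the log2 fold change of mural over endothelial cells rose to 6.54. Kcna5 in endothelial cells was 35.9 and 8.9 CPM without those cells, against 33.3 and 8.99 CPM with them. Kcnq1, a voltage-gated channel of epithelia and heart, had 39 and 34 UMIs there (10.1 and 11.3 CPM) and no more than 0.225 CPM in any other class. The adjusted p of its weakest contrast was 0.14 in edgeR, and it was called raised in endothelial cells only with no filter on low counts (adjusted p = 0.044), of the alternatives in which it was tested. The contrast with macrophages, whose 600450 and 440869 UMIs allow up to 5.00 and 6.80 CPM at a count of 0, had the largest p of the 8.

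Within the mural class, 79 and 66 pericytes were compared with 61 and 54 smooth muscle cells. Of 9 tested members 8 differed in edgeR (quasi-likelihood, adjusted by Benjamini-Hochberg over 6669 genes), against 33.8% of all genes. Kcnj8, Kcna5 and Kcnma1 had at most 3 UMIs in 1 of both groups, so they passed the filter on low counts through the other. The share of members that differed is therefore partly set by that filter. In pericytes 2 were higher (15.7% of all genes) and 6 lower (18.1%). Kcnj8 was 1808 and 1628 CPM in pericytes and 1.54 and 3.62 CPM in smooth muscle (adjusted p = 3.6e-41). The smooth muscle level rests on 3 UMIs, and the ratio of raw levels was 693, with an exact binomial 95% interval of 236 to 3365 that covers counting error only. In the fit, with TMM scaling and a prior count, the log2 fold change of Kcnj8 was 7.74 (SE 0.24). Raw ratios are therefore on another scale than the log2 fold changes. Kcne4 was 71.6 and 120.2 CPM against 29.2 and 23.5 CPM (log2 fold change 1.38, SE 0.31, adjusted p = 0.00020). Kcnab1, a cytoplasmic partner of Kv1 channels, was 217 and 226 CPM in smooth muscle and 5.73 and 7.28 CPM in pericytes (-4.60, SE 0.34, adjusted p = 3.7e-20). Kcna5, the Kv1 channel of vessel walls, was 149 and 112 CPM against 5.73 and 0 CPM in pericytes, a raw ratio of smooth muscle over pericytes of 41.2 (11.2 to 343, from 2 UMIs in pericytes). Its log2 fold change in the fit was -4.36 (SE 0.40, adjusted p = 1.2e-15). Kcnma1 was 81.5 and 114 CPM against 8.6 and 0 CPM, a raw ratio of 20.1 (6.69 to 98.7, from 3 UMIs). Its log2 fold change in the fit was -3.65 (SE 0.41, adjusted p = 5.1e-12). The partner Kcnmb1 was 143 CPM in both libraries of smooth muscle and 74.5 and 94.7 CPM in pericytes (-1.03, SE 0.24, adjusted p = 0.00025).

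Kcnk3 was 189 and 165 CPM in smooth muscle and 60.2 and 76.5 CPM in pericytes (log2 fold change -1.63, SE 0.24, adjusted p = 2.8e-08). The libraries of both cell types stood apart for each of these genes. Kcnj12 was 63.0 and 72.8 CPM in pericytes and 50.8 and 45.3 CPM in smooth muscle (0.17, SE 0.29, adjusted p = 0.71). Cells of smooth muscle had a median of 9704 and 9292 UMIs and pericytes of 4286 and 4032, and the median mitochondrial share was 6.60% and 11.1% in smooth muscle and 3.99% and 4.43% in pericytes. The part of depth and of this share in the differences was not tested.

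**Figure D4:**
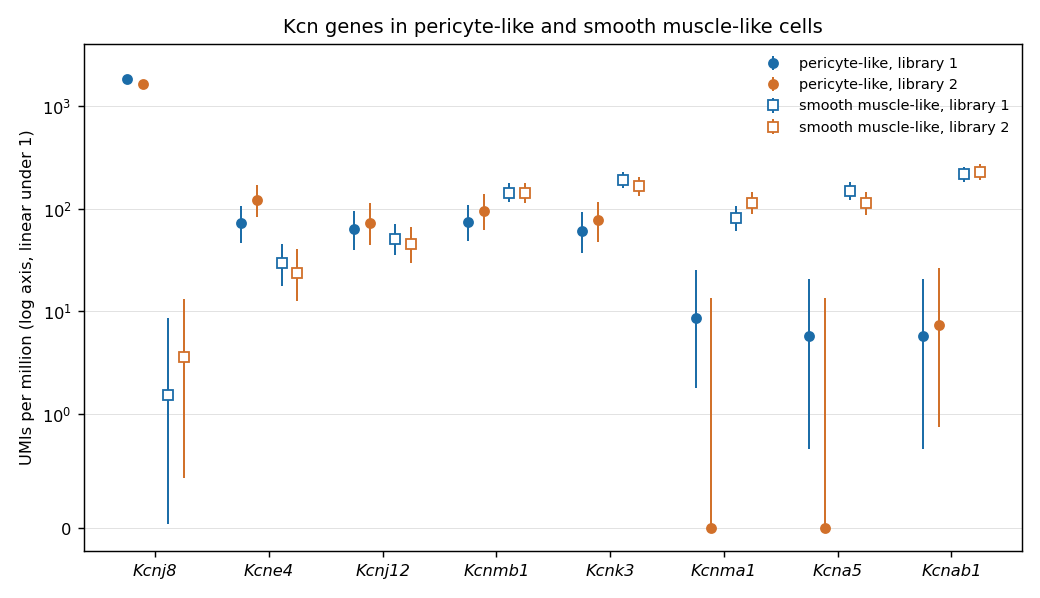
CPM (log axis, linear under 1) of 8 members tested in mural cells, for pericyte-like (filled circles) and smooth muscle-like cells (open squares), as 1 point per library with its exact Poisson 95% interval. Kcnj8 is 1808 and 1628 in pericytes and 1.54 and 3.62 in smooth muscle, and Kcnab1, Kcna5 and Kcnma1 lie the other way.

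Partner genes of the K+ channels and other genes that move K+ were counted in the same way from a list of 30 genes, of which 25 were tested and 12 (48.0%, against 31.1% of all genes) were raised in a class. Abcc9, the regulatory subunit that joins Kcnj8 in the ATP-sensitive channel, was 393 and 334 CPM in mural cells and, within them, 1106 and 987 CPM in pericytes and 1.54 and 0 CPM in smooth muscle. Neurons held 7 of the list, with Slc12a5, the neuronal chloride exporter that uses the K+ gradient, at 423 and 569 CPM (log2 fold change over macrophages 5.28, SE 0.42, adjusted p = 2.8e-07), and among the others the sodium pump subunit Atp1b1, the pump regulator Fxyd7 and the Kv1-associated protein Lgi1. Atp1b2, the glial pump subunit, was raised in astrocytes (1142 and 1571 CPM). Oligodendrocytes held the pacemaker channel Hcn2 (198 and 267 CPM), the cotransporter Slc12a2 (700 and 769 CPM) and the pump subunit Atp1b3 (523 and 586 CPM).

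Several members that are neighbours in the genome were highest in different classes. Kcnj9 (chr1:172320501-172329318, minus strand) and Kcnj10 (chr1:172341210-172374085, plus strand) lie 11891 bases apart in GRCm38. Kcnj9, a G protein-gated inward rectifier, was raised in neurons (30.7 and 19.6 CPM), where Kcnj10 was 36.6 and 13 CPM, and was 0.376 and 0.142 CPM in oligodendrocytes, where Kcnj10 was highest. Kcnj16 (chr11:110968033-111027968) and Kcnj2 (chr11:111066164-111076821), both on the plus strand, lie 38195 bases apart, and Kcnj2 was 0 and 1.55 CPM in OPCs, the class with most Kcnj16. On chromosome 6, Kcna5 (chr6:126532551-126535412) was raised in mural cells, while its neighbours Kcna1 (chr6:126640397-126646384) and Kcna6 (chr6:126708329-126740674) were raised in oligodendrocytes. Kcnj8 (chr6:142564837-142571614) and its partner Abcc9 (chr6:142587862-142702315), also neighbours at 16247 bases, were both raised in mural cells. Kcnmb1 (chr11:33963013-33973641, plus strand) lies within Kcnip1 (chr11:33629339-33993152, minus strand), and the sources do not say whether counting used the strand, so the split of reads between them is uncertain. In OPCs, where Kcnip1 was highest, Kcnmb1 had no UMI, and in mural cells, where Kcnmb1 was highest, Kcnip1 was 0.748 and 0 CPM.

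The study divided astrocytes by Crym, the gene of the thyroid hormone-binding protein μ-crystallin, and asked how Crym+ and Crym- cells differ. By its threshold 518 and 447 astrocytes were Crym+ and 847 and 586 Crym-. Members were tested where 10% or more of Crym+ or of Crym- cells held them, which left 14. Of these 4 differed in edgeR (quasi-likelihood, libraries as blocks, adjusted by Benjamini-Hochberg over 6101 genes), against 10.7% of all genes. In Crym+ cells 2 were higher (5.26% of all genes) and 2 lower (5.41%). Kcnj10 was 101.7 and 113 CPM in Crym+ cells and 135 and 232 CPM in Crym- cells (log2 fold change -0.75, SE 0.11, adjusted p = 1.4e-06). Kcnj16 was 15.3 and 22.9 CPM against 33.3 and 56.6 CPM (-1.21, SE 0.18, adjusted p = 1.8e-06). Kcnk1 was 969 and 848 CPM against 773 and 569 CPM (0.44, SE 0.08, adjusted p = 3.0e-05), and Kcnc1, a fast voltage-gated channel, was 24.4 and 35.1 CPM against 12.5 and 20.4 CPM (0.82, SE 0.20, adjusted p = 0.0046).

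In each library both inward rectifiers were lower and Kcnk1 and Kcnc1 higher in Crym+ cells, and for these 4 genes the values of the groups did not overlap. All 4 calls were lost without the block and with DESeq2, where 0 members passed. With edgeR, 5 of the 14 members had an unadjusted p under 0.05, against 1477 of the 6101 genes. The astrocytes came from 2 clusters that differed in depth, with a median of 1443.5 and 7653.5 UMIs, and Crym+ cells had a median of 2501 and 5354 UMIs against 1520 and 2129 in Crym- cells. Kcnj10 was lower in Crym+ cells in both libraries of both clusters, at 126 against 156 CPM and 132 against 192 CPM in the shallow cluster and 91.8 against 117 CPM and 109.8 against 246 CPM in the deep one. In cells thinned to 1000 UMIs, Kcnj10 alone was called, with a log2 fold change of -0.86, and that of Kcnj16 was -1.10. The Crym groups and the genes tested were set before thinning, so it does not even out the depth at which a cell was called Crym+. Kcnn2 and Kcnk2 did not pass (-0.15, SE 0.10, and -0.19, SE 0.10, adjusted p = 0.36 and 0.24).

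**Figure D5:**
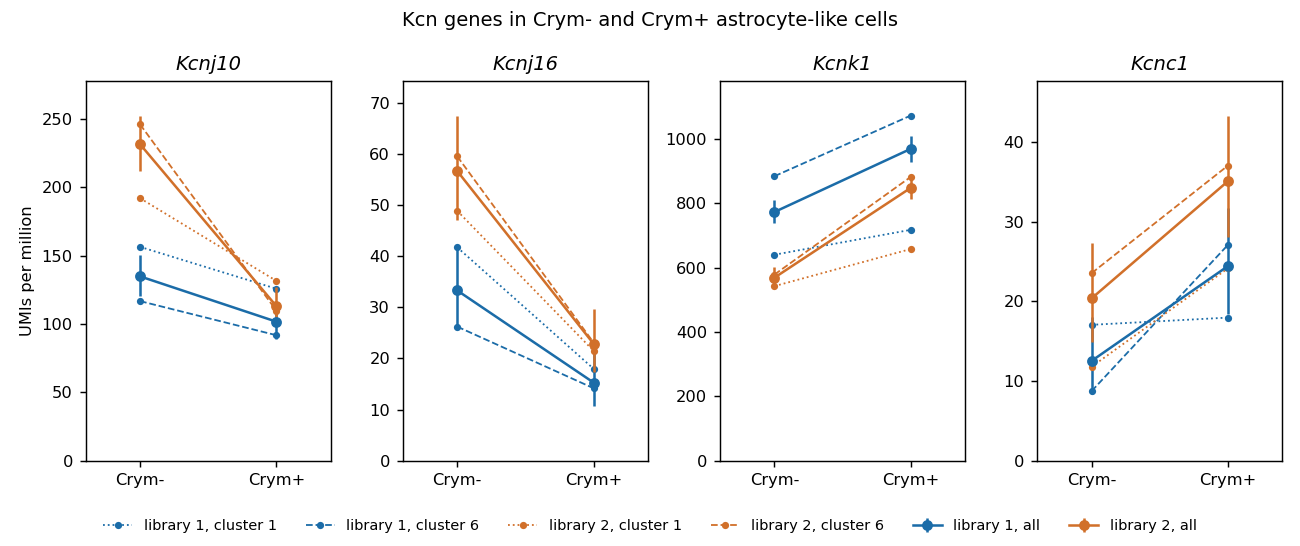
CPM of 4 members in Crym- and Crym+ astrocyte-like cells, with lines joining the groups of a library. Solid lines with exact Poisson 95% intervals are all astrocyte-like cells, dotted lines the shallow cluster (1) and dashed lines the deep cluster (6). Kcnj10 and Kcnj16 fall and Kcnk1 and Kcnc1 rise from Crym- to Crym+ along every line.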

How the data were processed

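The deposited files hold raw UMI counts per gene and cell, made by the authors with Cell Ranger (4.0 in the processing notes, 4.0.0 in the file headers) on mm10. Whether counting used the strand is not given in the sources used here.

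Cells with at least 300 detected genes were kept, Scrublet doublets were removed, and libraries were integrated in Seurat 5.3.0 (2000 variable genes, 30 components, resolution 0.08), without Kcn genes, a list of 30 K+ handling genes and Crym. A cluster was named when at least 3 markers of a class were raised 2-fold (10 CPM added) and 1 was among its 50 leading genes. A cell counted as Crym+ at a normalised value above 0.25.

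Counts were summed per library and class. Tests used edgeR 4.0.16 (TMM, filterByExpr, quasi-likelihood, prior count 2) with the library as a block, as every class of a library comes from the same suspension. SE is the fold change divided by the square root of the F statistic. For raised genes both are those of the smallest fold change, while p is the largest over the contrasts. Adjusted p-values are Benjamini-Hochberg values over all genes tested, with a threshold of 0.05. D1 and D2 cells had at least 3 marker UMIs, at least 4 times those of the other list and more than those of the interneuron markers. This rule was set after the data were seen. Intervals are exact Poisson 95% intervals, and the limit of a count of 0 is 3 UMIs. Both cover counting error only. Named genes were the 6 raised members of each class with the largest fold change, the 5 largest called changes in each direction of each pair of groups, Kcnj10 and Kcnj16 throughout, and the raised K+ handling genes; other genes were picked after their values were seen. Some genes that meet this rule are not reported here. Gene positions are from GENCODE M21. Members and lists were chosen with earlier results of these data known. Scripts were tested on simulated data. Alternatives were DESeq2 1.42.0, other scaling, filters, clusterings and depths, each library alone, and no block. Versions used were python 3.11.15, scanpy 1.11.5 and R 4.3.3.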

Additional observations from a re-analysis of the deposited data

How the results depend on the processing

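The count of 38 members raised in a class was 21 with at least 500 detected genes, where neurons joined erythroid cells and could not be named, 23 with under 20% mitochondrial UMIs, and 23 in cells thinned to 1000 UMIs, where 49 members were tested. The thinned cells gave 30 of 49 members between neurons and neuroblasts against 51 of 75, 27 between OPCs and oligodendrocytes against 51, 3 of 3 between pericytes and smooth muscle against 8 of 9, and 1 between Crym+ and Crym- cells against 4. Thinning tests fewer members, and the cause of the other shifts was not tested. DESeq2 gave 0 members for Crym, and over all genes it called 44 against 651 there, 10 against 109 between D1 and D2 cells and 898 against 2253 in mural cells. Without the library block the counts were 34 raised members, 51 between neurons and neuroblasts, 50 between OPCs and oligodendrocytes, 8 in mural cells, 0 between D1 and D2 cells and 0 for Crym. Apart from the DESeq2 counts above, the number of all genes called in these settings is not given. The member counts therefore do not show how members fared relative to other genes. In each library alone, with no test, 38 to 38 members were highest in the class called, and 51 to 51, 49 to 50, 8 to 8, 0 to 0 and 4 to 4 called members of the other comparisons, in the same order, kept their direction. These members were called from the same 2 libraries, so their agreement is largely set by the calls and is no independent check.

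Between neurons and neuroblasts, the log2 fold change of Kcnj10 turned to -0.23 with doublets kept, -0.47 without mixed subclusters and -0.089 without replicate 1 (1.24 without replicate 2), and that of Kcnj16 to -0.24 and -0.12 under the first 2 of these. Of 591 recomputed values for 53 results on named genes, 500 were unchanged and 37 kept their direction only. Of the 500, 25 values without replicate 1 and 35 without replicate 2 had no test and stayed within the SD between libraries. This SD comes from the same single-library values that it judges, so staying within it is no independent check. Those values were log2 ratios of CPM with 1 added, a scale other than that of the fit. The rest of the 500 kept their direction and side of the threshold. A further 45 values, each from a single library (27 without replicate 1 and 18 without replicate 2), moved by more than the SD between libraries, and 4 passed the threshold anew. Among those that kept their direction only, Kcnk9 was not called with under 20% mitochondrial UMIs and at a resolution of 0.32, and Kcne4 in pericytes not with DESeq2. The comparison of pericytes with doublets kept and those of neurons with at least 500 genes were not run. Macrophages had the lowest class totals, 600450 and 440869 UMIs, which put the limit of a count of 0 there at 5.00 and 6.80 CPM.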

Other observations

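In the finer clustering, 55 fibroblast-like cells carried Kcnj13, an inward rectifier of epithelia that line fluid spaces, at 78.2 and 63.6 CPM, against 12 and 7.7 CPM in the whole mural class. Kcnn4, the intermediate-conductance calcium-activated channel of immune cells, was 8.33 and 9.07 CPM in macrophages and was not called. Both genes were picked after their values were seen.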
